A study of Mus musculus with 12 samples.

Results

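The carbonic anhydrases described here are 7 genes, Car1, Car2, Car3, Car4, Car8, Car12 and Car13, out of 16 genes of this family that the platform annotation names and 22180 genes with a named probe set. They were found by symbol. A gene with several probe sets of 1 symbol was represented by the brightest of them, judged by the mean of all 12 arrays. The 7 were picked from the family with their levels in the 4 groups already known, so their levels and differences are a description without a p-value of their own, and members are only counted past a threshold beside all genes. All 7 passed the filter that left out the dimmest 25% of genes.

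The tissue came from colorectal tumors induced in mice of both genotypes with the AOM/DSS protocol, in which a carcinogen (azoxymethane) is followed by an irritant of the gut lining (dextran sulfate). Stat3wt stands for wild type mice and Stat3dm for mice with a conditional deletion of Stat3, the gene of a cytokine-activated transcription factor, in myeloid cells. The sources used here do not give the driver of the deletion, the strain, the age or how areas were chosen. Tumor and stroma had been cut apart by laser in paraffin sections, which gave 4 groups of 3 samples (Stat3wt tumor, Stat3wt stroma, Stat3dm tumor and Stat3dm stroma), each sample drawn from 2 pooled tumors of 1 mouse and put on its own array. The study asked which genes of the stroma change when myeloid cells lack Stat3.

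Carbonic anhydrases are zinc enzymes that interconvert carbon dioxide and bicarbonate with release of a proton. In the colon they feed the exchangers that swap bicarbonate for chloride and protons for sodium across the surface epithelium. Car1 and Car2 are cytosolic enzymes of surface colonocytes that are also known from red blood cells, and Car4 is tethered by a lipid anchor to the outer face of the apical membrane. Car13 is another cytosolic form. Car3 is a cytosolic form of low activity that is abundant in skeletal muscle and fat. Car12 spans the plasma membrane with its catalytic domain outside. Car8 belongs to the carbonic anhydrase-related proteins, which have lost the enzymatic activity.

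All values are log2 signals after robust multi-array average (RMA), a method that corrects background and brings the arrays to 1 distribution, so a difference of 1 is a doubling. Medians per array ran from 4.20 to 4.43 and standard deviations (SD) per array from 1.60 to 1.91, with Stat3wt tumor 3 and Stat3dm tumor 3 the widest. Stat3 itself was at 7.35 ± 0.65 (SD, n = 3) in Stat3wt stroma and 7.36 ± 0.04 in Stat3dm stroma, and at 7.71 ± 0.44 and 7.44 ± 0.47 in the tumors. The deletion concerns myeloid cells alone, so this did not check the labels. Since these are bulk areas of tissue, fewer cells of a type and less RNA per cell cannot be told apart.

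Car4, the enzyme of the apical membrane, had the widest difference between genotypes of the 7 genes, and it was higher in Stat3dm in both tissues. In tumor the 3 Stat3wt samples were at 5.51, 5.01 and 4.66, and the 3 Stat3dm samples at 7.16, 6.97 and 7.06. The groups did not overlap, and the Stat3dm tumors lay close together. The log2 difference was 2.00 ± 0.57 (SE, n = 3 against 3), a 4.0-fold higher signal. In stroma the Stat3wt samples were at 3.68, 5.09 and 4.47 and the Stat3dm samples at 9.19, 7.55 and 5.98. Again no Stat3dm sample came down to a Stat3wt sample, but the Stat3dm samples were widely spread, with replicate 1 at the top. The log2 difference was 3.16 ± 0.57 (SE), or 8.93-fold. The shared SE does not show that the SD was 1.60 in Stat3dm stroma and 0.10 in Stat3dm tumor. Of 16635 genes tested, 2 others had a stromal difference of at least this size, Reg3b (3.51 ± 1.07 SE, adjusted p = 0.563 in limma) and Mt4 (-3.30 ± 1.04 SE, adjusted p = 0.648), both named after their values were seen. In tumor 24 genes, Car4 included, had a difference at least as large as that of Car4. Nothing is read from these ranks, because Car4 was chosen with its levels known.

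Between tissues of 1 genotype Car4 differed by less than the SD of its stroma samples and by more than the SD of its tumor samples. Stroma minus tumor was -0.65 ± 0.57 (SE) in Stat3wt and 0.51 ± 0.57 in Stat3dm, with overlapping samples in both. Without Stat3dm stroma 1 the Stat3dm value turned to -0.29, and without Stat3wt stroma 1 the Stat3wt value was -0.28. In the order of the group means, Stat3dm stroma (7.57 ± 1.60 SD) and Stat3dm tumor (7.06 ± 0.10) came first and overlapped, and their order rested on Stat3dm stroma 1. Stat3wt tumor (5.06 ± 0.43) and Stat3wt stroma (4.42 ± 0.71) followed and overlapped with each other, and the step between the second and the third group was the one with separate ranges.

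**Figure D1:**
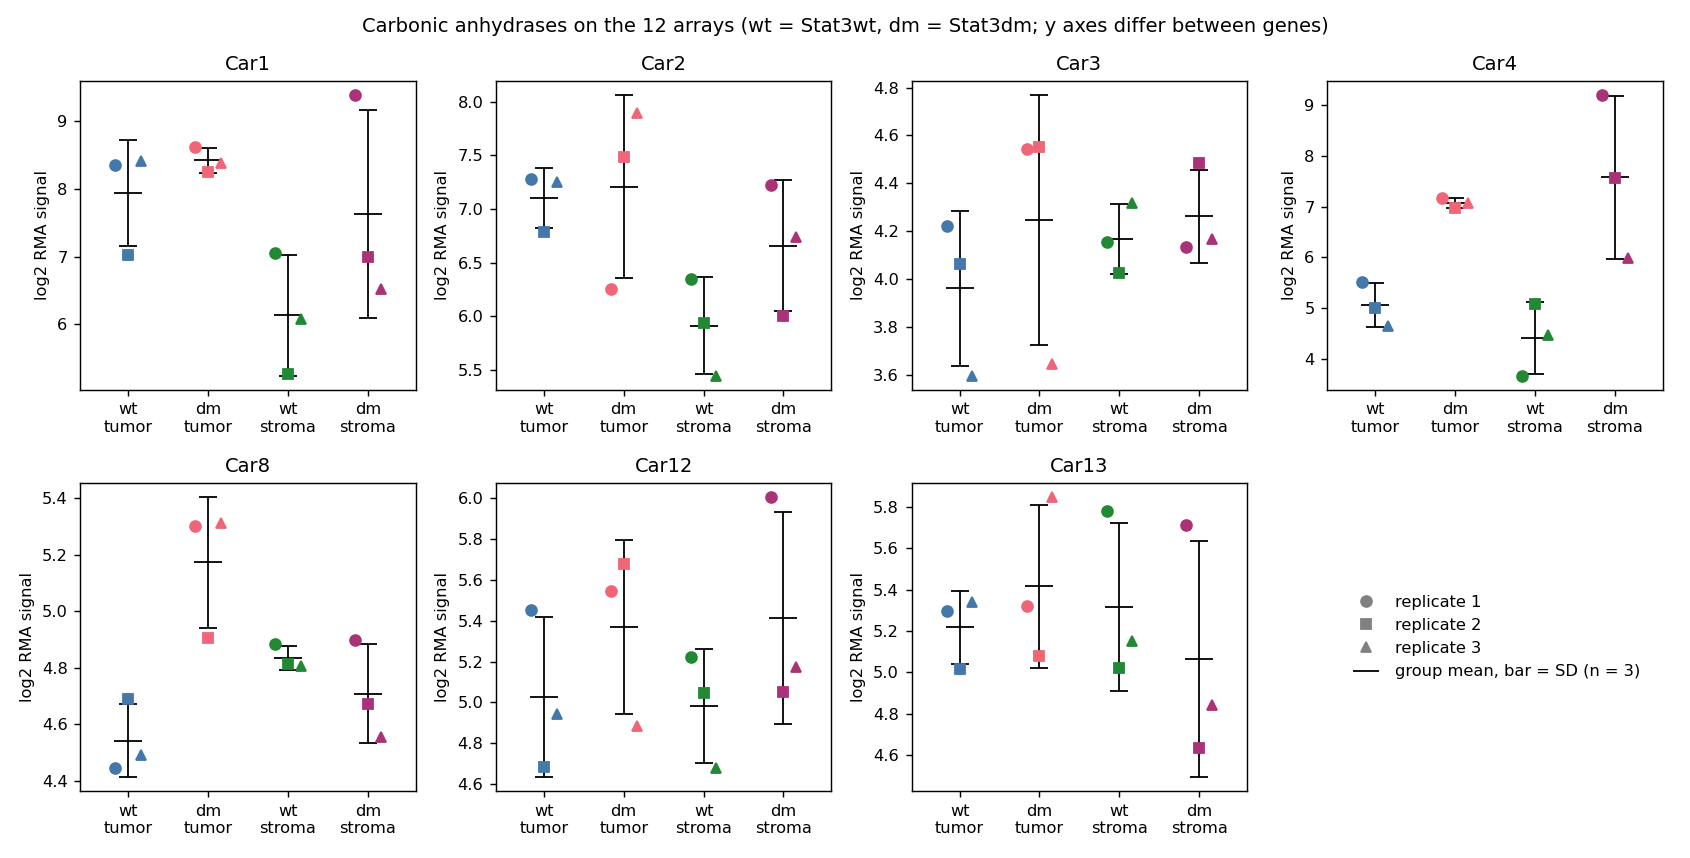
Log2 RMA signal of the 7 carbonic anhydrases on the 12 arrays, 1 panel per gene, with the 3 replicates of each group as circle, square and triangle, and the group mean with its SD as dash and bar. Car4 lies between 3.68 and 5.51 in all Stat3wt samples and between 5.98 and 9.19 in all Stat3dm samples, whereas the ranges of Car3, Car12 and Car13 overlap between all groups.

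The RefSeq promoter table of build GRCm38.p6 held 2 of the 7 genes, Car4 and Car12, with 250 bases before and 50 after the annotated start. They are shown as the gene with the widest genotype difference and one whose groups overlapped throughout. Capitals mark matches, on either strand, to the TATA box letters TATAAA and to ACGTG, the core of a hypoxia response element. Car4 lies at chr11:84957504-84957803 and Car12 at chr9:66713436-66713735, both on the plus strand.
Car4: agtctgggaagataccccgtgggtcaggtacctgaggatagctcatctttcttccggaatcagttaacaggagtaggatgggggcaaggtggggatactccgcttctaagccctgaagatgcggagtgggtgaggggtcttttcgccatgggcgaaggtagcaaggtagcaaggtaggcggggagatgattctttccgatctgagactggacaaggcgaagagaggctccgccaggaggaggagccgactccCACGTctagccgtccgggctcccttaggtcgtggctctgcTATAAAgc
Car12: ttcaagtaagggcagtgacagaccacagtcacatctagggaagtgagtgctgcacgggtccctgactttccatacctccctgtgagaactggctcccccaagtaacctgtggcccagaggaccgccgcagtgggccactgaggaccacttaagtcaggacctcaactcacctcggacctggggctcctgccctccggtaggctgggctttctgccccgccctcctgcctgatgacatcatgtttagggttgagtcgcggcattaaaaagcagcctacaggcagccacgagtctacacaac

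In the Car4 window 1 match to TATAAA began at base 43 after the annotated start and 1 match to ACGTG, read on the minus strand, at base 3. Neither window held the STAT palindrome TTCNNNGAA or TTTATG, a core that CDX homeobox factors of the intestine bind, and the Car12 window held none of the 4. Over 32851 promoter windows of the same length, 13.6% held TATAAA, 19.6% ACGTG, 8.30% TTCNNNGAA and 11.9% TTTATG. These are matches of letters and not binding sites.

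Over the 12 arrays the gene whose pattern was most like Car4 was Slc26a3 (Pearson r = 0.93, a description over arrays that share the same 4 groups), the chloride-bicarbonate exchanger of the apical colonocyte membrane. Plcxd2 (0.86) and Irf7 (0.86) followed. Slc26a3 was at 3.97, 3.81 and 3.69 in Stat3wt tumor and at 5.33, 5.02 and 5.92 in Stat3dm tumor. In stroma it was at 3.98, 3.49 and 3.53 in Stat3wt and at 7.21, 5.50 and 4.54 in Stat3dm. The genotypes were apart in both tissues, the Stat3dm stroma samples came in the same order as for Car4, and the Stat3wt values sat near 3.65, the mean below which genes were left out. Its log2 difference between genotypes was 2.09 ± 0.47 (SE) in stroma and 1.60 ± 0.47 in tumor, and neither passed limma over all genes (adjusted p = 0.304 and 0.423). Without Stat3dm stroma 1 the stromal value was 1.36. With the group means taken off, the genes closest to Car4 were Slc9a2, a sodium-proton exchanger (r = 0.91), Chp2 (0.89) and Ifna4 (0.89).

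Epithelial and colonocyte markers were set beside Car4. The mean log2 level of 10 epithelial markers such as Epcam and Krt8 was 7.99 ± 0.14 (SD, n = 3) in Stat3wt stroma and 8.07 ± 0.66 in Stat3dm stroma, and 9.08 ± 0.37 and 9.06 ± 0.39 in the tumors. Within Stat3dm stroma the epithelial mean was 8.60, 7.33 and 8.28 on replicates 1 to 3. The epithelial markers did not move together between genotypes: in stroma 6 lay above 0 and 4 below, from -1.10 to 0.63. Their median in stroma was 0.27, and it was -0.17 without Stat3dm stroma 1 and 0.63 without Stat3dm stroma 2. Krt18, named after its values were seen, was lower in Stat3dm with separate groups in stroma (-1.10 ± 0.27 SE, adjusted p = 0.369 in limma) and in tumor (-0.84 ± 0.27 SE, adjusted p = 0.512). With the mean of the 10 taken off each array the genotype difference of Car4 was 3.08 in stroma and 2.02 in tumor. The mean of 20 surface colonocyte genes was 5.54 ± 0.25 in Stat3wt stroma and 6.48 ± 0.90 in Stat3dm stroma, and 6.21 ± 0.26 and 6.69 ± 0.04 in the tumors. Stat3dm stroma 1, which had the highest Car4 and Car1 of all 12 arrays, also had the highest mean of this list, 7.51, and the next array was at 6.74. With the surface colonocyte mean taken off, the Car4 difference was 2.22 in stroma and 1.52 in tumor. That of Car1 in stroma was 0.56, against 1.42 with the epithelial mean taken off. That of Car2 in stroma turned from 0.75 to -0.19 with the surface colonocyte mean taken off. Between tissues of Stat3wt Car4 turned from -0.65 to 0.44 with the epithelial mean taken off.

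**Figure D2:**
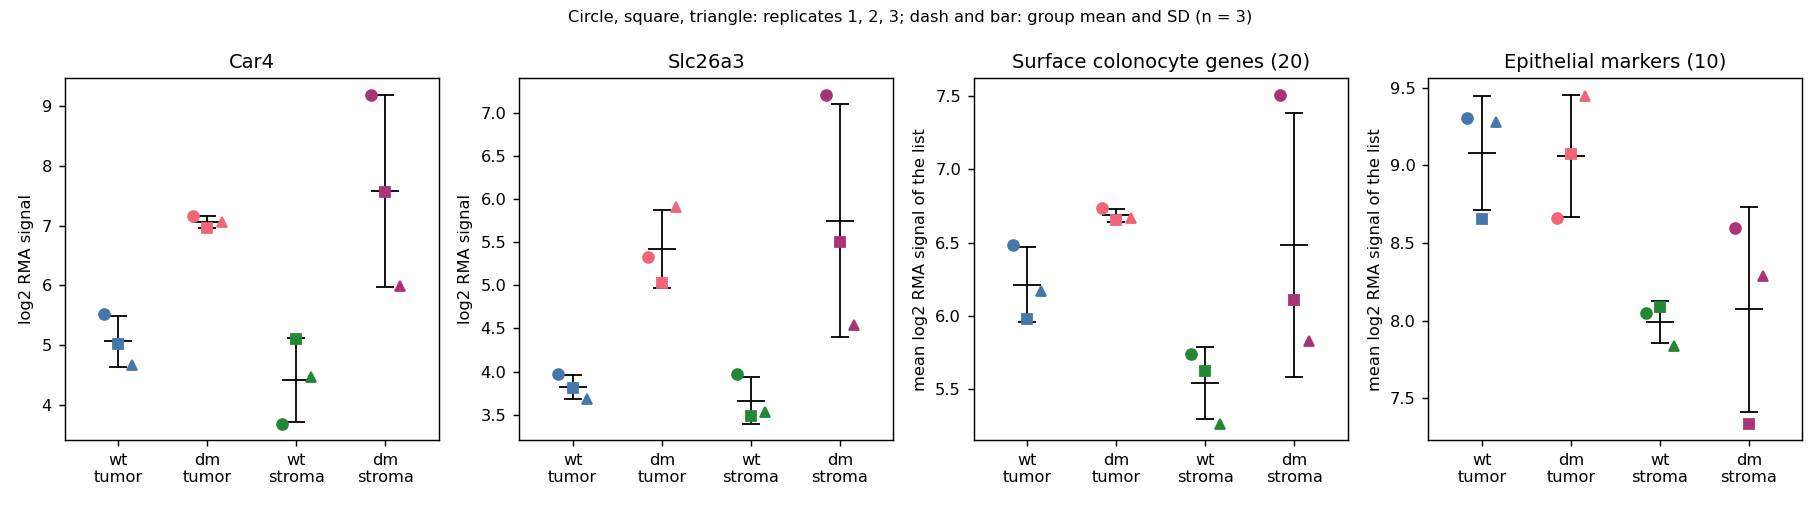
Log2 RMA signal of Car4 and Slc26a3 and the mean log2 signal of 20 surface colonocyte genes and 10 epithelial markers on each of the 12 arrays, by group, with group mean and SD. Car4 and Slc26a3 are higher in every Stat3dm sample than in any Stat3wt sample of the same tissue, the surface colonocyte mean is highest in Stat3dm stroma 1 (7.51), and the epithelial means follow the tissue, with 7.99 and 8.07 in stroma and 9.08 and 9.06 in tumor.

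Car1, Car2, Car3 and Car13 lie next to each other on chromosome 3 in the order Car13, Car1, Car3, Car2 among protein-coding genes of the RefSeq table, and their levels did not move as 1 block. Car1, the cytosolic colonocyte form, was at 8.36, 7.03 and 8.41 in Stat3wt tumor and at 7.05, 5.27 and 6.07 in Stat3wt stroma. Stroma was lower by 1.80 ± 0.61 (SE), or 3.49-fold, and the groups overlapped by 0.02 through Stat3wt tumor 2 and Stat3wt stroma 1. In Stat3dm the tumors were at 8.62, 8.26 and 8.39 and the stroma at 9.39, 7.0 and 6.52. Here the difference between tissues was -0.79 ± 0.61 (SE), and Stat3dm stroma 1 lay above every tumor. Without that array the Stat3dm value was -1.66, and the difference of the genotype effect between tissues went from 1.01 ± 0.87 (SE) to 0.14. The genotype difference of Car1 was 1.5 ± 0.61 (SE) in stroma, 2.83-fold, with overlapping samples, and 0.63 without Stat3dm stroma 1. In tumor it was 0.49 ± 0.61 (SE), and 0.04 without Stat3wt tumor 2, the low array of its group.

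Car2, the fast cytosolic form, showed the tissue difference of Car1 in Stat3wt with separate groups. Its Stat3wt tumors were at 7.28, 6.78 and 7.25 and its Stat3wt stroma samples at 6.35, 5.94 and 5.45, so that every stroma sample lay below every tumor. The log2 difference was -1.19 ± 0.39 (SE), a 2.29-fold lower signal in stroma, and -0.10 with the epithelial mean taken off. In Stat3dm the tumors were at 6.25, 7.48 and 7.89 and the stroma samples at 7.23, 6.01 and 6.74, which overlapped (-0.55 ± 0.39 SE). This value was -1.03 without Stat3dm tumor 1 and -0.21 without Stat3dm tumor 3. Between genotypes Car2 differed by 0.75 ± 0.39 (SE) in stroma and by 0.10 ± 0.39 in tumor, with overlap in both, and the value in tumor changed sign under 4 of 20 alternatives.

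Car13 and Car3, the other genes of the cluster, stayed within the spread between samples. Car13 ranged from 4.63 to 5.85 over all arrays, and its 4 group means lay between 5.06 ± 0.57 (SD) in Stat3dm stroma and 5.42 ± 0.40 in Stat3dm tumor. Its genotype differences were -0.25 ± 0.30 (SE) in stroma and 0.20 ± 0.30 in tumor. Car3 ranged from 3.6 to 4.55, near the filter on dim genes, and its genotype differences were 0.10 ± 0.26 (SE) in stroma and 0.29 ± 0.26 in tumor. A second Car3 probe set had a mean of 2.93 over the 12 arrays, below the filter. No neighbours in the order of the group means had separate ranges for Car1, Car2, Car3, Car12 or Car13.

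Car12, the transmembrane form, overlapped between all groups. It was at 5.45, 4.68 and 4.94 in Stat3wt tumor, at 5.54, 5.68 and 4.88 in Stat3dm tumor, at 5.22, 5.05 and 4.68 in Stat3wt stroma and at 6.01, 5.05 and 5.18 in Stat3dm stroma. Stat3dm stroma 1 was the highest array for this gene too. The genotype difference was 0.43 ± 0.30 (SE) in stroma, 0.13 without that array, and 0.34 ± 0.30 in tumor. Stroma and tumor differed by -0.04 ± 0.30 in Stat3wt and 0.04 ± 0.30 in Stat3dm.

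Car8, the form without enzymatic activity, had the smallest standard error of the 7 genes, and its highest group was Stat3dm tumor. In tumor it was at 4.45, 4.69 and 4.49 in Stat3wt and at 5.30, 4.90 and 5.31 in Stat3dm, a difference of 0.63 ± 0.19 (SE), or 1.55-fold, with separate groups. In stroma it was at 4.88, 4.81 and 4.81 in Stat3wt and at 4.90, 4.67 and 4.55 in Stat3dm, a difference of -0.13 ± 0.19 with overlap. Stroma thus lay above tumor in every Stat3wt sample (0.29 ± 0.19 SE, 0.19 with median centring) and below it in every Stat3dm sample (-0.46 ± 0.19 SE), in the latter by a gap of 0.0062 between the nearest arrays. The difference between these 2 values was -0.76 ± 0.27 (SE). Stat3dm tumor came first in the order of means and was separate from Stat3wt stroma, the next group, while the neighbours below it overlapped.

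**Figure D3:**
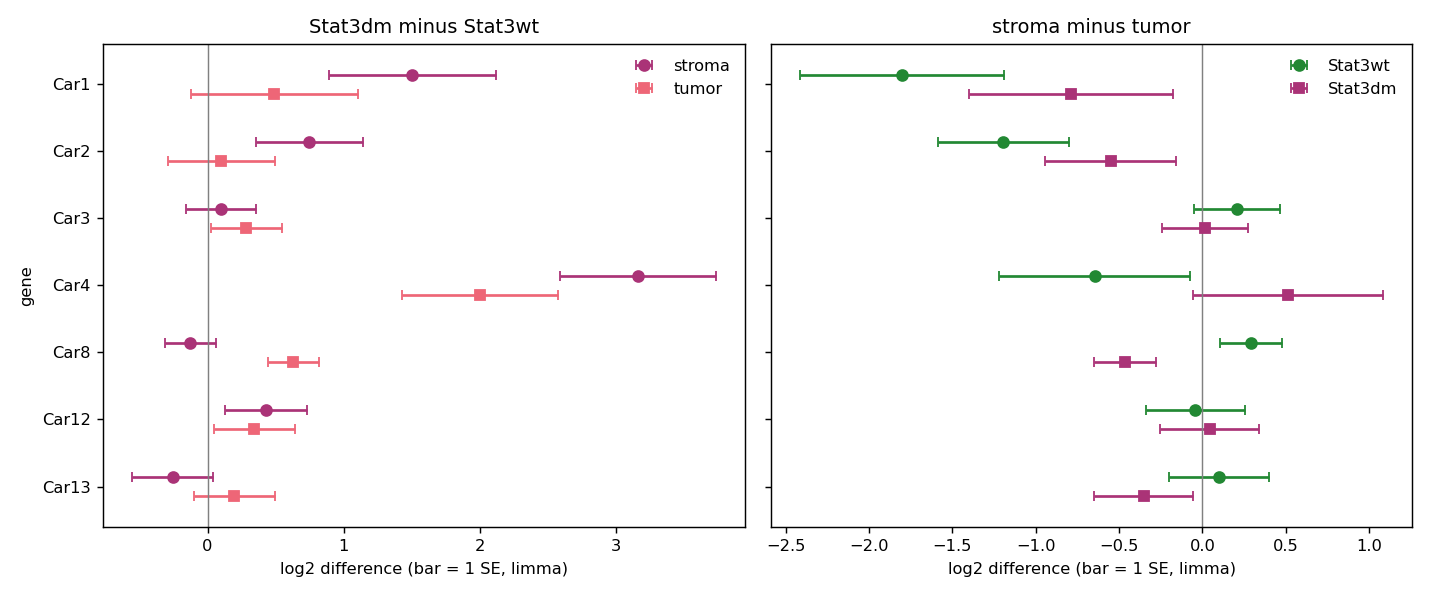
Log2 difference of each carbonic anhydrase between genotypes within stroma and tumor (left) and between stroma and tumor within each genotype (right), with 1 standard error from limma as bar. Car4 stands at 3.16 in stroma and 2.00 in tumor on the left, and Car1 and Car2 at -1.80 and -1.19 in Stat3wt on the right.

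Set against all genes, the counts were as follows, and nothing is read from them because these contrasts chose the members. Between genotypes in stroma 0 of the 7 passed adjusted p 0.05 in limma, as did 0 of all 16635 genes (0%). At unadjusted p under 0.05 stood 2 members, Car1 and Car4, both higher in Stat3dm, beside 5.07% of all genes (844) in either direction. Groups were apart for 1 member, Car4, beside 10.8% of all genes. Between genotypes in tumor 0 members passed, beside 0.018% of genes, which were Dkk2, Stra6 and Plat, all lower in Stat3dm and named after their values were seen (log2 -2.16, -2.83 and -2.29, adjusted p = 0.0076, 0.0136 and 0.0466 in limma). With the replicate number as a block 89 genes passed there, none of them a carbonic anhydrase described here. In tumor 2 members, Car4 and Car8, stood at unadjusted p under 0.05, both higher in Stat3dm, beside 6.26% of genes in either direction, and the same 2 had separate groups, beside 9.52%. The 7 members had a median log2 difference of 0.43 in stroma and 0.34 in tumor, against -0.02 and -0.01 for all genes tested.

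Between tissues 0 of 7 members and 0% of all genes passed limma in either genotype. In Stat3wt 2 members, Car1 and Car2, stood at unadjusted p under 0.05, both lower in stroma, beside 16.7% of genes (2783) in either direction. Groups were apart for 2 members, Car2, lower, and Car8, higher, beside 23.9% of genes. In Stat3dm 1 member, Car8, stood at unadjusted p under 0.05, lower in stroma, beside 9.68% of genes (1610) in either direction, and it alone of the 7 had groups apart, beside 13.7%. With the replicate number within each genotype as a block 152 genes passed in Stat3dm, none of them one of the 7. For the difference of the genotype effect between tissues 0 genes passed (0%), with 401 at unadjusted p under 0.05 (2.41%), Car8 among them. The tests between tissues and those between genotypes share arrays.

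**Figure D4:**
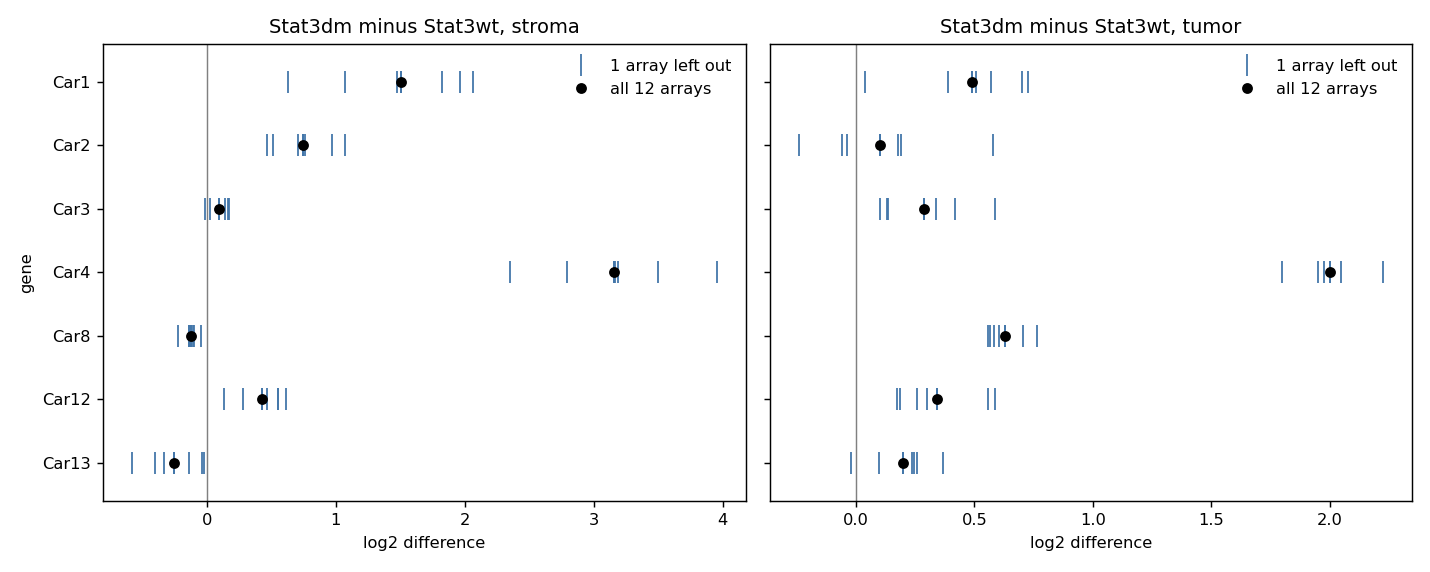
Log2 difference between genotypes of each carbonic anhydrase in stroma (left) and tumor (right) with all 12 arrays (black dot) and with each array left out in turn (blue ticks). Car4 comes down to 2.35 in stroma without Stat3dm stroma 1, and Car1 in stroma comes down to 0.63 without Stat3dm stroma 1.

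Car4 kept its sign between genotypes under all 20 processing alternatives run, from 2.31 to 3.95 in stroma and from 1.55 to 2.22 in tumor. Both low ends came with array weights, and the stromal value was 2.35 without Stat3dm stroma 1 and 3.95 without Stat3dm stroma 3. Some of the 20 could not move a difference within 1 tissue, such as no filter or leaving out an array of the other tissue. The kept sign says nothing in those cases. Car8 in tumor ranged from 0.50 to 0.76. Car1 in stroma ranged from 0.63 to 2.06, and Car2 in stroma from 0.46, without Stat3dm stroma 1, to 1.07.

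Among themselves the members were loosely related over the 12 arrays, a description of arrays that share 4 groups. The closest pair was Car1 and Car2 (r = 0.72), followed by Car4 and Car12 (0.63) and Car1 and Car12 (0.62). With group means taken off the closest was Car1 and Car13 (0.82), and Car2 and Car3, neighbours in the genome, ran against each other (-0.61). The genes most like Car1 over the 12 arrays were Entpd8 (0.92), Ceacam1 (0.92) and Guca2a (0.91), the last of which encodes the colonocyte peptide guanylin. Those most like Car2 were Abhd17c (0.95), Cnnm4 (0.95) and Adgrf1 (0.94). For Car8 the highest was Tmem107 (0.86), for Car12 Psmb11 (0.88), for Car13 Kyat1 (0.84) and for Car3 Dkkl1 (0.94). With group means taken off, Mpst (0.93) was most like Car1, Abhd17c (0.97) most like Car2 and Mob3b (0.97) most like Car13.

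Of the other 9 carbonic anhydrases of the platform 7 had a probe set with 1 symbol and 6 passed the filter on dim genes. In limma 0 of these 6 passed in any of the 5 contrasts, and 0 stood at unadjusted p under 0.05. Car9, the hypoxia-induced membrane form, differed between genotypes by 0.24 ± 0.39 (SE) in stroma and 0.38 ± 0.39 in tumor (adjusted p = 0.999 and 0.838), and its signal ranged from 4.74 to 6.52 over the arrays. Car11 and Car10, related proteins without activity, differed by 0.43 ± 0.23 and 0.28 ± 0.22 (SE) in tumor and by 0.03 ± 0.23 and -0.03 ± 0.22 in stroma. Car7, a cytosolic form, and Car11 and Car15 lay higher in every Stat3wt stroma sample than in any Stat3wt tumor. Their differences were 0.45, 0.46 and 0.25 (adjusted p = 0.308, 0.316 and 0.425 in limma). These were 3 of the 6, beside 23.9% of all genes with groups apart in either direction. Car5b, the mitochondrial form, differed between genotypes by 0.09 ± 0.19 (SE) in stroma and by -0.13 ± 0.19 in tumor (adjusted p = 0.999 and 0.874). Its Stat3dm tumors lay just below its Stat3wt tumors and its Stat3dm stroma samples without overlap, beside 9.52% and 13.7% of all genes with groups apart. Car6, the secreted form, had a mean of 2.78 and was left out as dim.

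Genes that carry bicarbonate, chloride, protons or lactate with these enzymes numbered 23 in the list, of which 18 were tested. In limma 0 passed in any contrast. Between genotypes in stroma 12 lay above 0, with a median of 0.16, against -0.02 for all genes tested. Beside 5.07% of all genes in either direction, 3 of the 18 stood at unadjusted p under 0.05, all higher. These were Slc26a3, Slc9a2 (1.35 ± 0.39 SE, adjusted p = 0.546) and Slc9a3r1, a scaffold of apical transporters (0.77 ± 0.27 SE, adjusted p = 0.737), and the groups of all 3 were apart. Without Stat3dm stroma 1 these 3 differences were 1.36, 0.77 and 0.41, and 8 of 18 genes lay above 0, with a median of -0.04. In tumor Slc9a3, the sodium-proton exchanger that works alongside Slc26a3, lay the other way, lower in Stat3dm by 1.40 ± 0.46 (SE) with separate groups (adjusted p = 0.512). It was also lower in stroma than in tumor in Stat3wt (-1.87 ± 0.46 SE, adjusted p = 0.185).

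Surface colonocyte genes were 22 in the list and 19 of them were tested, with Slc26a3 on both lists. Between genotypes in stroma 18 of 19 lay above 0 with a median of 1.02. At unadjusted p under 0.05 in limma stood 12, beside 5.07% of all genes in either direction, and 0 passed adjustment over all genes. The list was written with earlier results of these data known, so these counts are a description. The means of the list were 7.51, 6.11 and 5.83 in Stat3dm stroma against 5.74, 5.63 and 5.26 in Stat3wt stroma. Without Stat3dm stroma 1, 14 lay above 0 with a median of 0.61 and 3 stood at unadjusted p under 0.05, and without Stat3wt stroma 3 the median was 0.69 and 6 did. Cdhr5, a cadherin of the brush border, was at 1.45 ± 0.33 (SE, adjusted p = 0.329), and Lypd8, a secreted protein that keeps bacteria off the epithelium, at 1.02 ± 0.33 (adjusted p = 0.654), or 0.64 without Stat3wt stroma 3. In tumor 18 of 19 lay above 0 with a median of 0.41 (0.25 without Stat3wt tumor 2). At unadjusted p under 0.05 stood 2, beside 6.26% of all genes, Slc26a3 and the water channel Aqp8 (1.11 ± 0.46 SE, adjusted p = 0.738). Between tissues of Stat3wt 15 of 19 lay below 0 in stroma with a median of -0.83. All genes tested had medians of -0.02, -0.01 and -0.04 in these 3 contrasts.

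Hypoxia-induced genes, to which Car9 belongs and with which Car12 is often grouped, numbered 14 tested. Between genotypes in stroma 13 lay above 0 with a median of 0.48, against -0.02 for all genes tested. Ldha, a glycolytic enzyme (0.61 ± 0.22 SE, adjusted p = 0.760), and Pfkfb3 (0.76 ± 0.30 SE, adjusted p = 0.881) stood at unadjusted p under 0.05, beside 5.07% of all genes. Without Stat3dm stroma 1, 9 lay above 0 with a median of 0.11, 0 stood at unadjusted p under 0.05 and Pfkfb3 was at 0.32. In tumor 8 lay above 0 with a median of 0.11, which turned to -0.11 without Stat3wt tumor 2 and to -0.12 without Stat3dm tumor 3. The mean of the list was 6.85 in Stat3dm stroma 1 and 5.83 and 6.12 in the other 2 Stat3dm stroma samples, against 5.80 to 5.93 in Stat3wt stroma.

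Markers of the other cell types that could carry these enzymes were set beside them. Of the red blood cell list 5 of 10 genes had a probe set with 1 symbol, without the globins, and the log2 of their summed signal was 7.06 to 7.41 in Stat3wt stroma and 7.02 to 7.32 in Stat3dm stroma. The 8 skeletal muscle markers, of which 5 passed the filter on dim genes, summed to 7.70 to 7.90 in Stat3wt stroma and 7.62 to 7.92 in Stat3dm stroma. The 7 named adipocyte markers of 8, of which 4 passed it, summed to 7.11 to 7.44 and 7.29 to 7.37. Between genotypes in stroma all 8 goblet cell markers were tested, 7 of them lay above 0 with a median of 0.93 (0.59 without Stat3dm stroma 1), and their sum was 10.7 to 11.8 in Stat3wt and 11.6 to 13 in Stat3dm. All 6 leukocyte markers lay above 0 with a median of 1.03, and their sum was 8.88 to 9.82 in Stat3wt and 10.2 to 10.6 in Stat3dm. Of 6 macrophage markers 5 lay above 0 with a median of 0.34, which turned to -0.08 without Stat3wt stroma 1. In tumor 5 of these 6 lay below 0, with a median of -0.22. In stroma 1 of 8 fibroblast and 2 of 8 endothelial markers lay above 0, with medians of -0.14 and -0.22. These turned to 0.12 and 0.0047 without Stat3dm stroma 1 and to 0.19 and 0.10 without Stat3wt stroma 3. As to the labelled tissues, all 10 epithelial markers lay below 0 in stroma against tumor in both genotypes, with medians of -1.06 and -0.98. Epithelial markers remained well expressed in stroma, with Lgals4 and Krt8 at no less than 9.41 and 9.01 on any array. The part of these cell types in the values of the carbonic anhydrases was not tested.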

How the data were processed

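The submitters' processing notes name RMA and version 1.3.1 of Affymetrix Expression Console. The log2 signals of 41345 probe sets were used as the authors deposited them. From 50 ng of RNA of laser-cut paraffin tissue, amplified with a kit for fixed tissue per the labels' protocols, 1 array was made per sample. No source used here gives the genome build behind the probe sets. The platform annotation gave 1 symbol to 23521 probe sets, several to 1814 and left 16010 unnamed. Of the named ones 23328 had a RefSeq gene of GRCm38.p6, and 0 symbols changed.

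Of 22180 genes the dimmest 25%, whose mean log2 signal fell short of 3.65, were dropped. For the other 16635, limma 3.58.1 under R 4.3.3 estimated 4 group means from all 12 arrays, moderated statistics, and Benjamini-Hochberg adjustment within each of 5 contrasts at 0.05, and the fit was tested on simulated data. Adjusted p-values are from this fit and standard errors are its moderated ones. Samples of a group came from separate mice, as far as 1 mouse per sample is stated. Same-numbered samples of the 2 tissues correlated in their deviations from the group means at 0.12 to 0.30 in Stat3dm, and at -0.0041 to 0.51 in Stat3wt. Same-numbered samples of the genotypes, which are different mice, did so at 0.15 to 0.69 in tumor and at -0.04 to 0.15 in stroma. The 0.69 was between Stat3wt tumor 3 and Stat3dm tumor 3, the 2 arrays of widest spread. The fit took no samples as pairs. A replicate block was run only as an alternative, since the labels do not say which samples pair.

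The named genes are the 7 members, Stat3, the other carbonic anhydrases, the 3 smallest p of 3 lists in each simple contrast, and the 3 genes most like each member, without predicted genes and small RNAs, of which the text names a part. Members and lists were chosen with earlier results of these data known. Alternatives were no filter, quantile normalization, median centring, the mean over probe sets, array weights, array spread as a covariate, a replicate block and leaving out each array. Leaving out the 2 widest arrays, taking off the epithelial or colonocyte mean, and recomputing the lists without each array were chosen after seeing the data.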

Additional observations from a re-analysis of the deposited data

Results flagged for a closer look

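Car8 lay higher in stroma than in tumor in Stat3wt (log2 0.29) and lower in Stat3dm (-0.46), with every sample of the 2 groups apart in each genotype and the directions opposite. The gap between the nearest samples was 0.11 in Stat3wt and 0.0062 in Stat3dm. The difference between the 2 values was -0.76 ± 0.27 (SE). In limma across all genes Car8 stood at unadjusted p under 0.05 for it, and 0 genes passed adjustment, but the gene was chosen with these levels known, so this is no independent test. With the mean of the epithelial markers, which are lower in stroma, taken off each array, the Stat3dm value was 0.52. This moves the difference of every gene by the same amount. The opposite directions thus hold for the signal as deposited and not for the signal relative to epithelial markers. With the surface colonocyte mean taken off instead, neither Car8 value changed sign.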

How the results depend on the processing

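The count of genes past adjusted p 0.05 in limma moved most with array weights, whose estimate stopped before it converged and which ranged from 0.26 to 7.80. Of 16635 genes it was then 164 between genotypes in stroma, with Car4 among them, and 1579 in tumor, with Car4 and Car8. It was 4 for the interaction, 3963 between tissues in Stat3wt, with Car1 and Car2, and 727 in Stat3dm. A member named here or below as passing is not thereby tested, because the members were chosen with these levels known. With the replicate block the count was 28 in stroma between genotypes, with Car4, and 138 between tissues in Stat3wt, with Car1. It was 89 in tumor and 152 in Stat3dm, and the interaction kept 0. Between genotypes a block was a replicate number over all groups. Between tissues and for the interaction it was a replicate number within a genotype. As far as the labels say, the samples of a block share only a number, or a number and the genotype. With the array spread as a covariate it was 13 in stroma, 14 in tumor and 114 in Stat3dm, and after quantile normalization 1 in stroma and 33 in Stat3dm. Leaving out 1 array gave 0 to 2 genes in stroma, 0 to 7 in tumor, 0 for the interaction, 0 to 8 in Stat3wt and 0 to 22 in Stat3dm. In stroma it was 2 without Stat3wt stroma 2 and 1 without Stat3wt stroma 1 or any 1 array of Stat3dm stroma, which was Car4 without Stat3dm stroma 3. In tumor it was 7 without Stat3wt tumor 1 or Stat3wt stroma 1, 5 without Stat3wt stroma 2 or Stat3dm tumor 3, 1 without Stat3wt tumor 2 and 0 without Stat3wt tumor 3. In Stat3wt 8 passed without Stat3wt stroma 2. In Stat3dm 22 passed without Stat3wt stroma 3, 13 without Stat3dm stroma 1, 2 without Stat3dm tumor 1 and 1 without Stat3wt tumor 3. The cause of these moves was not tested. Over 35 member values and 700 recomputed ones, 6 moved by at least 1 SD. Of these 1 was the genotype difference of Car4 in tumor, from 2.00 to 1.55 with array weights. Another was of Car8 (Stat3wt stroma minus tumor, 0.19 with median centring). In all 34 changed sign, none of these of Car1 or Car8. For Car4 1 of the 5 values changed sign, Stat3dm stroma minus tumor, at -0.29 without Stat3dm stroma 1. These counts leave out the marker levels taken off each array. Part of the 700 could not differ from the main value, such as those without an array that the contrast does not use. Of 35 member values, 7 changed sign with the epithelial mean taken off, among them Car8 between tissues in Stat3dm, and 10 with the surface colonocyte mean taken off, among them both genotype differences of Car2 and Car12. With 3 arrays a group, precision is limited by their number.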
